A study of Mus musculus with 8 samples.

Results

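The C1q/TNF-related proteins (CTRPs) are a family of secreted proteins with a globular C1q domain at the carboxyl end. Most members join that domain to a collagen-like stretch and assemble into trimers, as adiponectin does. The family is best known from fat, muscle, liver and the vessel wall, where several members act as hormones of glucose and lipid metabolism, while others are proteins of cartilage, the eye and the connective tissue. Fibroblasts are the cells that make and maintain connective tissue.

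The members are the 9 genes C1qtnf1, C1qtnf2, C1qtnf3, C1qtnf4, C1qtnf5, C1qtnf6, C1qtnf7, C1qtnf9 and C1qtnf12, out of 50578 genes in the table. They were chosen by name, and all 9 genes that the annotation calls C1qtnf in the table are included, whatever their level. C1qtnf12 was found by its gene identifier, since the table lists it under the older symbol Fam132a. The family was put forward with fold changes of these libraries already known. The fold changes and adjusted p-values are therefore given as a description, and the calls are no independent evidence about the family.

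RNA-seq was performed on wild-type mouse embryonic fibroblasts (MEFs) from E13.5 C57BL/6J embryos without head, tail, limbs and internal organs, used at passage 3 to passage 5. MEFs without a compound (MEF) were compared with MEFs cultured with carbidopa (an inhibitor of aromatic amino acid decarboxylase), LY-364947 (an inhibitor of the type I TGF-beta receptor kinase) or CHIR-99021 (an inhibitor of glycogen synthase kinase 3), each at 10 µM, with 2 libraries per group and 8 in all. The labels write the TGF-beta receptor inhibitor as LY-364747, give no vehicle for the MEF group and do not name the length of treatment of these libraries. The question of the study was whether compounds predicted by computation move MEFs toward a hepatic progenitor-like state.

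Total counts ranged from 15039566 to 20504338 per library, and 15154 genes passed the filter on low counts and were tested. The labels call the treated cells hepatic-like. For such a state the paper gives cell shape, staining for fat and glycogen, qRT-PCR of hepatocyte genes relative to MEF and clustering with hepatic progenitor-like cells. In the counts, 6 hepatocyte markers together had few reads, with 4 reads in each MEF library (0.258 to 0.297 CPM) against 11 to 21 after treatment (0.518 to 1.18 CPM). None of them passed the filter. Alb had 0 to 2 reads in MEF and 5 to 10 in the treated libraries, Hnf4a had 1 to 2 and 6 to 10, and Ttr had 0 or 1 in each library. Summed fibroblast markers (8 of 8 tested) were at 15577 to 15768 CPM in MEF and at 5870 to 8065 CPM in the treated libraries. The markers did not move together. Col1a1, Col1a2, Col3a1, Thy1 and Vim were called lower with every compound, while Pdgfra was called higher (log2 fold changes 0.49, 0.36 and 0.64 under carbidopa, LY-364947 and CHIR-99021). Pdgfrb was called lower under carbidopa and LY-364947 only, and Dcn under CHIR-99021 only. Summed macrophage markers (7 of 8 tested) were at 986 to 1026 CPM in MEF, 290 to 302 under carbidopa, 218 to 221 under LY-364947 and 71.1 to 79.9 under CHIR-99021. Most of each sum was Lyz2, at 738 and 758 CPM in MEF and 47.8 and 53.8 under CHIR-99021. The part of either shift in the values of the C1q/TNF-related genes was not tested. In such bulk libraries, fewer cells that make a transcript and less of it per cell cannot be told apart.

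Of the 9 genes, 7 passed the filter. C1qtnf9, the member closest to adiponectin and studied mostly in the heart and vessels, had 0 reads in all 8 libraries, and a count of 0 allows up to 3 reads in a library. C1qtnf4, which carries a pair of C1q domains in place of the collagen-like stretch, had between 1 and 6 reads in each library and was not tested. Adiponectin itself (Adipoq) had 0 to 2 reads and was not tested either, Plin1, Cidec and Lep had 0 in every library, and the 6 adipocyte markers together stood at 6.4 to 13.1 CPM (2 of 6 tested). Epithelial markers (2 of 5 tested) stood at 0.774 to 0.967 CPM in MEF, 1.68 to 2.21 under carbidopa, 1.38 to 1.4 under LY-364947 and 4.93 to 5.07 under CHIR-99021. In the last group Krt18 (log2 fold change 2.37, adjusted p = 0.00101) and Cldn4 (3.70, adjusted p = 0.000772) were called higher than in MEF. Both rest on few reads, with 5 and 10 in MEF against 45 and 48 under CHIR-99021 for Krt18. Cldn4 had 2 and 2 against 36 and 29, so it entered the test through treated libraries. The remaining markers, Krt8, Cdh1 and Epcam, had 0 to 6 reads in every library and were not tested. The part of the change in Krt18 and Cldn4 in the values of the C1q/TNF-related genes was not tested. Endothelial markers stood at 8.53 to 14.3 CPM (1 of 4 tested), almost all from Kdr. Pecam1, Cdh5 and Tie1 had 0 to 7 reads in each library.

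C1qtnf3 (CTRP3, also called cartducin, a secreted protein of cartilage and fat) was by far the most abundant member in MEF and close to absent from the treated cells. Levels of different genes are compared as TMM-normalised CPM (read counts scaled to library size) per kilobase of exon, CPM per kb. On that scale C1qtnf3 stood at 131 ± 9.58 in MEF (SD, n = 2), above 98.1% of the genes tested, against 13.2 ± 0.287 for the next member, C1qtnf2. The order in MEF continued with C1qtnf6 at 8.3, C1qtnf7 at 6.73, C1qtnf5 at 6.57, C1qtnf1 at 3.98 and C1qtnf12 at 3.3. The 2 libraries of C1qtnf7 and those of C1qtnf5 overlapped, so their order is open, while all other neighbours in MEF were separate. C1qtnf4 stood at 0.129.

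In the treated groups C1qtnf2 (CTRP2) headed the order. It stood at 28.8 ± 9.35 CPM per kb under carbidopa, 24.5 ± 2.9 under LY-364947 and 13 ± 2.55 under CHIR-99021. C1qtnf1 and C1qtnf6 followed in each of these groups, at 9.3 and 8.02 under carbidopa, where their libraries overlapped, at 11.1 and 8.49 under LY-364947, and at 7.93 and 7.64 under CHIR-99021. C1qtnf7, C1qtnf5 and C1qtnf12 held lower places, with at least 1 overlapping pair of neighbours in each treated group. C1qtnf3 was at 0.147 under carbidopa, 0.128 under LY-364947 and 0.69 under CHIR-99021, below C1qtnf4 in the former 2 groups, though under carbidopa the libraries of C1qtnf3 and C1qtnf4 overlapped. Among the genes tested, 5.61%, 3.77% and 22% lay below C1qtnf3 in the respective groups.

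The make-up of the summed family changed most through C1qtnf3, and the levels of other members shifted as well. C1qtnf3 took 75.2% to 76.1% of the family's CPM per kb in MEF, 0.24% to 0.309% under carbidopa, 0.222% to 0.267% under LY-364947 and 1.51% to 2.36% under CHIR-99021. The family summed to 166 and 182 CPM per kb in the MEF libraries, to 61.4 and 47.3 under carbidopa, to 49.4 and 54.5 under LY-364947 and to 38.9 and 33.7 under CHIR-99021. Without C1qtnf3 the sums were 41 and 43.4 in MEF, 61.3 and 47.1 under carbidopa, 49.3 and 54.4 under LY-364947, and 38.3 and 32.9 under CHIR-99021. The other members together therefore lay above MEF under carbidopa and LY-364947 and below it under CHIR-99021, in both libraries of each group. C1qtnf2 alone held 46.9% to 57.7% of the sum under carbidopa, 45.4% to 48.6% under LY-364947, 33.2% to 38.1% under CHIR-99021 and 7.36% to 7.83% in MEF.

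**Figure D1:**
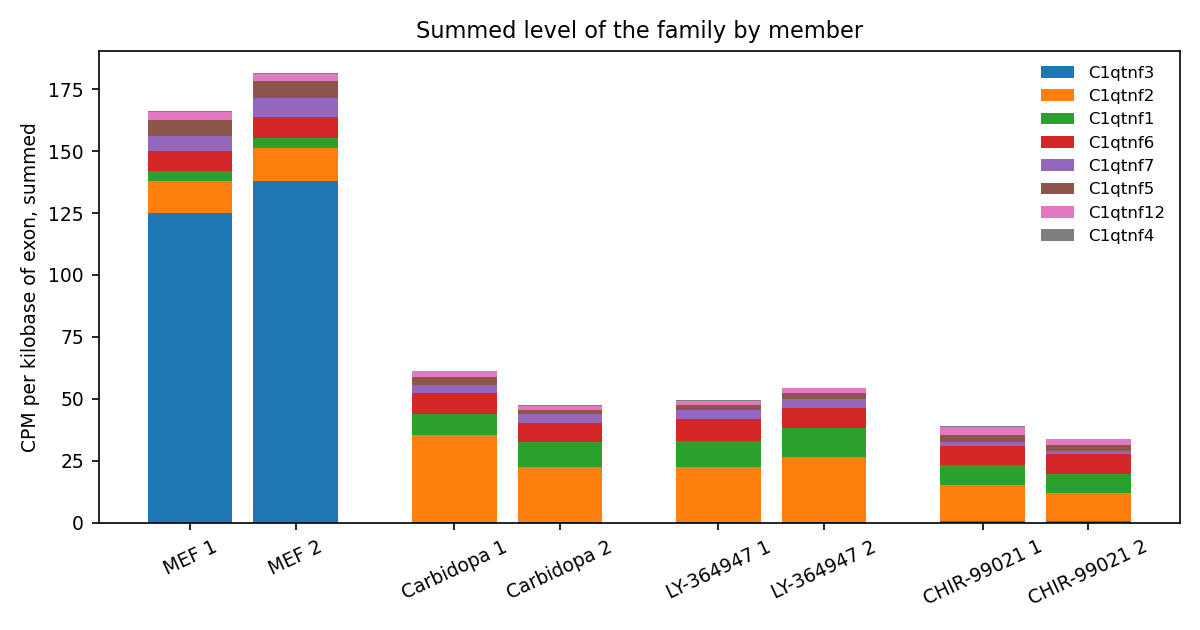
Summed level of the C1q/TNF-related genes in each of the 8 libraries, in TMM-normalised CPM per kilobase of exon, with 1 bar per library stacked by member. C1qtnf3 fills most of the MEF bars (75.2% and 76.1%) and is too thin to see in the treated bars, where C1qtnf2 is the thickest layer.

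In MEF, C1qtnf3 had 4284 and 5474 reads (319 and 353 CPM). It had 8 and 8 reads under carbidopa (0.377 and 0.373 CPM), 5 and 7 reads under LY-364947 (0.281 and 0.373 CPM), and 26 and 35 reads under CHIR-99021 (1.5 and 2.03 CPM). All 6 treated libraries lay far below both MEF libraries, and the CHIR-99021 libraries lay above the other 4. Relative to MEF, C1qtnf3 was 880-fold lower under carbidopa (95% interval 657 to 1177), 1003-fold lower under LY-364947 (742 to 1355) and 190-fold lower under CHIR-99021 (148 to 243). The log2 fold changes were -9.78 ± 0.19 (SE, adjusted p = 9.13e-10), -9.97 ± 0.20 (adjusted p = 1.01e-09) and -7.57 ± 0.16 (adjusted p = 1.85e-09). These SEs and intervals understate the uncertainty at such low treated counts. Counting error alone gives 8 reads in a carbidopa library a 95% range of 3.45 to 15.8. For 5 reads in an LY-364947 library the range is 1.62 to 11.7. Ranked from the lowest fold change among 15154 genes, C1qtnf3 came at rank 3 under carbidopa, at rank 2 under LY-364947 and at rank 13 under CHIR-99021. Under carbidopa and LY-364947 its counts were under the filter, so the gene entered the test through its MEF and CHIR-99021 libraries. Chondrocyte markers, which bear on a cartilage gene, summed to 20.3 to 23.3 CPM in MEF and 8.47 to 14.2 CPM in the treated libraries, almost all from Sox9, the 1 of 5 that was tested. The defining cartilage genes Col2a1 (0 to 5 reads) and Acan (0 to 6 reads) were near 0 in every library. The 3 contrasts share the same 2 MEF libraries and are not independent of each other.

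The direct contrasts separated CHIR-99021 from the other compounds. C1qtnf3 was 4.64-fold higher under CHIR-99021 than under carbidopa (95% interval 2.96 to 7.27, log2 fold change 2.21 ± 0.29, adjusted p = 0.000879) and 5.29-fold higher than under LY-364947 (3.26 to 8.56, adjusted p = 0.000855). Both contrasts rest on counts of 5 to 35 reads, and their intervals are likewise too narrow for such counts. Between LY-364947 and carbidopa the log2 difference was -0.19 with an interval of -1.12 to 0.74 (adjusted p = 0.888), so a level up to 2.18-fold lower under LY-364947 lies within the interval.

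The gene lies on chromosome 15 at 10952332-10980150 on the plus strand (GRCm38, GENCODE M21), with 6 exon blocks and 2557 exon bases, and none of its 2525 words of 75 bases was shared with another annotated transcript. Its neighbours moved far less. Amacr, a racemase of peroxisomal fatty acid oxidation that starts 29424 bases further along, had log2 fold changes of -0.52 under carbidopa (adjusted p = 0.0716), -0.82 under LY-364947 (0.0141) and -0.66 under CHIR-99021 (0.0314). Rai14, an actin-associated protein whose start lies 237708 bases before that of C1qtnf3, was lower under carbidopa (-0.41, adjusted p = 0.00703) and LY-364947 (-0.38, 0.0113) and higher under CHIR-99021 (0.46, 0.00317).

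The stretch before the start of C1qtnf3 is shown because this gene changed most, beside that of C1qtnf2, which differed between CHIR-99021 and the other compounds. Each run holds the 250 bases before the RefSeq start, 5′ to 3′ on the plus strand of GRCm38.p6. Capitals mark matches to the TATA box, searched as TATAAA. They also mark the core of the SMAD box, the element bound by the transcription factors of TGF-beta signalling, which was searched as CAGAC and reads as its reverse complement where it lies on the minus strand.
C1qtnf3, chr15:10952082-10952331: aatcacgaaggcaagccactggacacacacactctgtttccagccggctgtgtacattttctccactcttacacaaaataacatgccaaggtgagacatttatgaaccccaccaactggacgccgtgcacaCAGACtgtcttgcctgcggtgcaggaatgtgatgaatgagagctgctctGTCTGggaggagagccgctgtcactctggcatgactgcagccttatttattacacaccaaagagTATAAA
C1qtnf2, chr11:43474056-43474305: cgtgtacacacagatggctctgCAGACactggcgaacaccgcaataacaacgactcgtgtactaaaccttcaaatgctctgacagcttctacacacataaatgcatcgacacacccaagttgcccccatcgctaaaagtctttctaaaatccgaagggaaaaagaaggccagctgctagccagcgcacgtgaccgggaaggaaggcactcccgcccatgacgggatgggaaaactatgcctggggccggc

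The C1qtnf3 stretch ended in the letters TATAAA at bases -6 to -1, directly before the RefSeq start. It held the SMAD core at -119 to -115 on the plus strand and at -70 to -66 on the minus strand. The C1qtnf2 stretch held the SMAD core at -228 to -224, and its last 30 bases lie inside the first exon of GENCODE M21, which starts earlier than the RefSeq transcript. Windows from 250 bases before to 50 bases after the start were available for 6 members (C1qtnf2, C1qtnf3, C1qtnf5, C1qtnf6, C1qtnf7 and C1qtnf9), and both strands were searched. The search also covered the TCF/LEF core, written as CTTTGA, and the CArG box. No match overlapped another. Over 32851 such windows of all genes, 13.6% held TATAAA, 49.6% the SMAD core, 16% the TCF/LEF core and 1.63% a CArG box, at any position. The window of C1qtnf7 held the SMAD core at bases 34 to 38 after the start on the minus strand, and those of C1qtnf6 and C1qtnf9 held none of the motifs. The window of C1qtnf5, whose RefSeq start lies at the start of Mfrp, held the SMAD core at -211 to -207 on the minus strand and the TCF/LEF core at 33 to 38. A match of these letters is a description of the sequence and not a binding site.

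**Figure D2:**
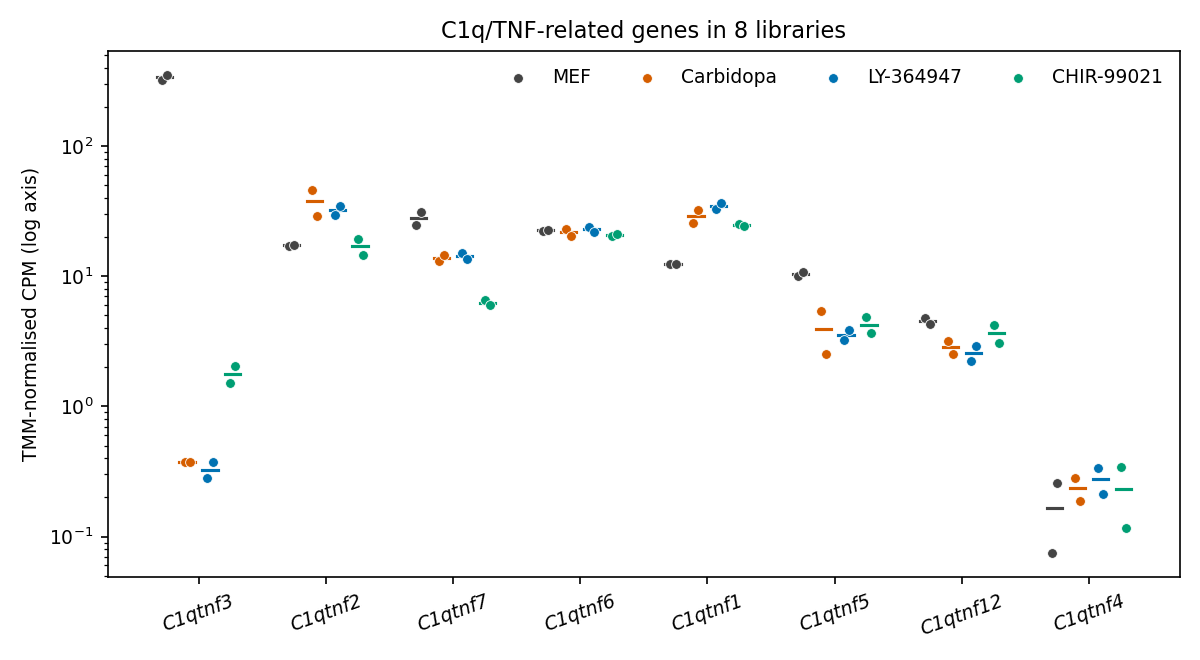
TMM-normalised CPM (log axis) of 8 C1q/TNF-related genes, with 1 point per library and a bar at the mean of each group of 2 libraries. C1qtnf3 sits at 319 and 353 CPM in MEF and at 2.03 CPM or below in the treated libraries, whereas C1qtnf6 sits between 20.2 and 23.9 CPM throughout. C1qtnf9 is left out because it had 0 reads in every library.

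C1qtnf1 and C1qtnf2 were the members found higher after treatment. Among the 7 members tested, 2 were called higher and 3 lower under carbidopa, at a Benjamini-Hochberg adjusted p under 0.05 in edgeR's quasi-likelihood test, where 37.7% of all genes tested were called (18% higher and 19.7% lower). Under LY-364947, 2 members were called higher and 4 lower, where 31% of all genes were called (13.7% higher and 17.2% lower). A second test, DESeq2, called 5 of the 7 in that contrast. Under CHIR-99021, 1 member was called higher and 3 lower, where 38.8% of all genes were called (18.7% higher and 20.1% lower). The median log2 fold change of the 7 members was -0.65 under carbidopa, -0.80 under LY-364947 and -0.31 under CHIR-99021, against 0.04, 0.03 and 0.04 over all genes tested. Since C1qtnf3 passed the filter through groups where it was high, these counts are no support for a change of the family.

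C1qtnf1 (CTRP1), a secreted protein of fat and the vessel wall, was higher with every compound. It had 167 and 194 reads in MEF (12.4 and 12.5 CPM), 546 and 697 under carbidopa (25.7 and 32.5 CPM), 582 and 690 under LY-364947 (32.7 and 36.7 CPM) and 438 and 421 under CHIR-99021 (25.2 and 24.4 CPM). No treated library came near the MEF libraries, which lay close to each other. The gene was 2.33-fold higher under carbidopa (95% interval 1.87 to 2.91, log2 fold change 1.22 ± 0.14, adjusted p = 9.04e-05), 2.78-fold higher under LY-364947 (2.23 to 3.47, 1.48 ± 0.14, adjusted p = 2.39e-05) and 1.99-fold higher under CHIR-99021 (1.59 to 2.49, 0.99 ± 0.14, adjusted p = 0.000396). Ranked from the highest fold change among 15154 genes, C1qtnf1 came at rank 959 under carbidopa, at rank 763 under LY-364947 and at rank 1236 under CHIR-99021. C1qtnf1 lies on chromosome 11 at 118428203-118449963, and 20.5% of its exon bases are shared with the antisense gene Gm11747. The sources used here do not say whether reads were counted by strand. Gm11747 itself was given 0 to 7 reads in each library. Of the 3122 words of 75 bases in C1qtnf1, 18.5% occur in other genes on either strand, Gm11747 among them.

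C1qtnf2, a secreted member studied in lipid handling, was higher under carbidopa and LY-364947. Its reads were 228 and 271 in MEF (17 and 17.5 CPM), 984 and 622 under carbidopa (46.3 and 29 CPM), 522 and 651 under LY-364947 (29.3 and 34.7 CPM) and 336 and 252 under CHIR-99021 (19.3 and 14.6 CPM). The CHIR-99021 libraries lay on either side of the MEF libraries, while the other 4 treated libraries lay above them. The gene was 2.19-fold higher under carbidopa (95% interval 1.57 to 3.05, log2 fold change 1.13 ± 0.22, adjusted p = 0.0025), and this log2 fold change was 0.75 without carbidopa replicate 1 and 1.43 without carbidopa replicate 2. It was 1.86-fold higher under LY-364947 (1.33 to 2.6, 0.89 ± 0.22, adjusted p = 0.0104), a call that was lost without MEF replicate 1 (adjusted p = 0.073), without MEF replicate 2 (0.0622) or without LY-364947 replicate 2 (0.0817). Under CHIR-99021 the difference from MEF was -0.02 with an interval of -0.52 to 0.48 (adjusted p = 0.952).

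C1qtnf2 lies on chromosome 11 at 43474276-43491525, with 1308 exon bases and no word of 75 bases in common with other genes. Its downstream neighbour Ccnjl, a cyclin-like gene that starts 54508 bases further along, was higher with all compounds, by 4.17 ± 0.41 on the log2 scale under carbidopa (adjusted p = 2.69e-05), 4.08 ± 0.42 under LY-364947 (3.68e-05) and 4.16 ± 0.42 under CHIR-99021 (2.91e-05). Ccnjl had 3 and 2 reads in the MEF libraries against 52 to 78 in the treated ones. It passed the filter through the treated libraries, so the size of these values rests on MEF counts near 0. The neighbour on the other side, the splicing factor Slu7, was not called, with log2 fold changes of 0.20 to 0.31.

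C1qtnf7 and C1qtnf5 were lower with every compound. C1qtnf7 (CTRP7), a secreted member studied in glucose handling, had 333 and 485 reads in MEF (24.8 and 31.3 CPM), 277 and 312 under carbidopa (13 and 14.6 CPM), 268 and 255 under LY-364947 (15 and 13.6 CPM) and 113 and 103 under CHIR-99021 (6.51 and 5.98 CPM). The libraries formed 3 levels, with MEF highest, carbidopa and LY-364947 overlapping in the middle and CHIR-99021 lowest. The gene was 2.03-fold lower under carbidopa (95% interval 1.61 to 2.56, log2 fold change -1.02 ± 0.15, adjusted p = 0.000451), 1.96-fold lower under LY-364947 (1.55 to 2.48, -0.97 ± 0.15, adjusted p = 0.000708) and 4.49-fold lower under CHIR-99021 (3.49 to 5.78, -2.17 ± 0.16, adjusted p = 3.7e-06). It lies on chromosome 5 at 43515538-43618803. The gene with the nearest start before it, Cpeb2, a regulator of translation, was also lower, with log2 fold changes of -1.02, -0.95 and -1.13, and Cc2d2a, a ciliary gene beyond it, was not called with any compound.

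C1qtnf5 (CTRP5), a secreted protein of the retinal pigment epithelium, had 136 and 167 reads in MEF (10.1 and 10.8 CPM), 114 and 54 under carbidopa (5.37 and 2.52 CPM), 58 and 72 under LY-364947 (3.26 and 3.83 CPM) and 84 and 63 under CHIR-99021 (4.84 and 3.66 CPM). All treated libraries lay below both MEF libraries in CPM, and the carbidopa libraries were the farthest apart. The gene was 2.65-fold lower under carbidopa (95% interval 1.67 to 4.21, log2 fold change -1.41 ± 0.30, adjusted p = 0.00467), 2.94-fold lower under LY-364947 (1.83 to 4.73, -1.56 ± 0.31, adjusted p = 0.00315) and 2.46-fold lower under CHIR-99021 (1.54 to 3.92, -1.30 ± 0.30, adjusted p = 0.00695). The value under carbidopa was -2.05 without carbidopa replicate 1 and -0.96 without carbidopa replicate 2, and the call under CHIR-99021 was lost without CHIR-99021 replicate 2 (-1.10, adjusted p = 0.0588).

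The assignment of reads to C1qtnf5 is uncertain. The gene (chromosome 9, 44107245-44109187) shares a transcription unit with Mfrp, a membrane protein of the same epithelium, and all of its 1589 exon bases lie within exons of Mfrp in GENCODE M21. Of its 1916 words of 75 bases, 79% occur in transcripts of other genes. Mfrp itself had few reads, at 0.33 ± 0.375 CPM in MEF and 0.164 to 0.195 CPM on average in the treated groups, and was not tested. How reads on the shared exons were divided is not given in the sources used here.

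C1qtnf6 was not called under any compound, and C1qtnf12 was called under LY-364947 alone. C1qtnf6 (CTRP6), a secreted inhibitor of the alternative complement pathway, had 298 and 352 reads in MEF (22.2 and 22.7 CPM), 492 and 433 under carbidopa (23.2 and 20.2 CPM), 426 and 413 under LY-364947 (23.9 and 22 CPM) and 351 and 363 under CHIR-99021 (20.2 and 21.1 CPM). The groups overlapped, except that both CHIR-99021 libraries lay below the MEF and LY-364947 libraries. Its log2 fold change was -0.05 under carbidopa (95% interval -0.32 to 0.22), 0.03 under LY-364947 (-0.24 to 0.30) and -0.12 under CHIR-99021 (-0.39 to 0.15), with adjusted p-values of 0.773, 0.87 and 0.471. These intervals end within 1.31-fold of MEF in either direction and were the narrowest of the 7 members.

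C1qtnf12 (adipolin), an insulin-sensitising factor, had 64 and 66 reads in MEF (4.76 and 4.26 CPM), 68 and 54 under carbidopa (3.2 and 2.52 CPM), 40 and 55 under LY-364947 (2.25 and 2.93 CPM) and 73 and 53 under CHIR-99021 (4.2 and 3.08 CPM). All treated libraries lay below both MEF libraries, the nearest being CHIR-99021 replicate 1. The log2 fold change was -0.65 ± 0.26 under carbidopa (adjusted p = 0.068) and -0.31 ± 0.25 under CHIR-99021 (adjusted p = 0.371), neither of which was called. Under LY-364947 it was called lower (-0.80 ± 0.26, adjusted p = 0.042), but DESeq2 did not call it (-0.818, adjusted p = 0.0923). The call was also lost on leaving out MEF replicate 1 (adjusted p = 0.183), MEF replicate 2 (0.108), LY-364947 replicate 1 (0.222) or LY-364947 replicate 2 (0.0722).

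At the loci of the other members, the genes with the nearest starts moved in several ways. Beside C1qtnf1, the nucleotidase Cant1 was higher under LY-364947 (log2 fold change 0.33, adjusted p = 0.0354) and CHIR-99021 (0.41, 0.0107) and was not called under carbidopa (0.25, 0.0855), and Engase was not called. Beside C1qtnf12, Ube2j2 was higher under CHIR-99021 (0.41, adjusted p = 0.0399) and not called otherwise, and B3galt6 was not called. Beyond C1qtnf5, the predicted gene Gm49380 was not called. Beside C1qtnf6, Il2rb had 0 to 4 reads and Sstr3 had 0, and neither was tested.

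The members too low to test lay beside expressed genes. Next to C1qtnf9, Spata13, an exchange factor for small GTPases, was lower under carbidopa (-3.34 ± 0.30, adjusted p = 1.24e-05), LY-364947 (-3.95 ± 0.33, 7.54e-06) and CHIR-99021 (-1.25 ± 0.25, 0.00317), and Mipep was not called. Next to C1qtnf4, Kbtbd4 was higher under carbidopa (0.48, adjusted p = 0.0116), LY-364947 (0.39, 0.0357) and CHIR-99021 (0.45, 0.0152), and Mtch2 was not called.

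**Figure D3:**
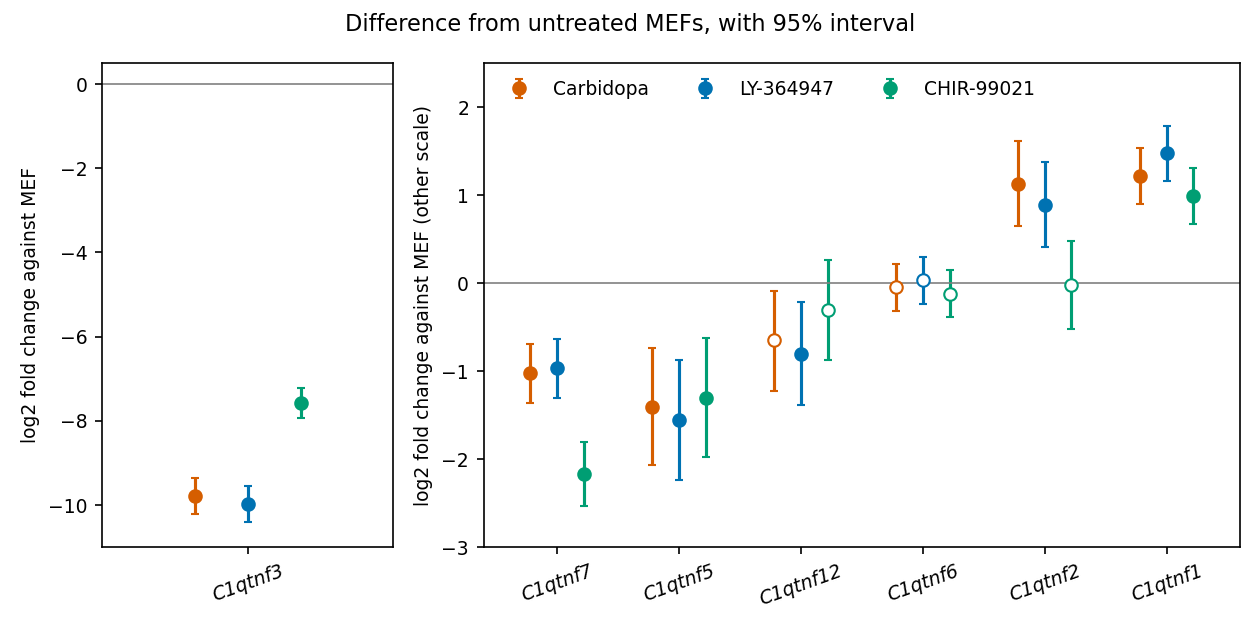
Log2 fold change of the 7 members tested against MEF with its 95% interval, by compound, with C1qtnf3 on its own scale at the left. Filled points were called at an adjusted p under 0.05 and open points were not. C1qtnf1 is above 0 with all compounds, C1qtnf2 is near 0 under CHIR-99021 (-0.02), and C1qtnf7 is lowest under CHIR-99021 (-2.17).

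CHIR-99021 differed from the other compounds in C1qtnf2, C1qtnf3 and C1qtnf7. Against carbidopa, 1 of the 7 members was called higher and 2 were called lower, where 14.7% of all genes were called (6.62% higher and 8.08% lower). C1qtnf7 was 2.21-fold lower (95% interval 1.71 to 2.85, log2 fold change -1.14 ± 0.16, adjusted p = 0.0015) and C1qtnf2 was 2.22-fold lower (1.59 to 3.09, -1.15 ± 0.21, adjusted p = 0.0061). Without CHIR-99021 replicate 2 the call of C1qtnf2 was lost (-0.956, adjusted p = 0.0638), and without carbidopa replicate 1 C1qtnf1 was called lower (-0.386, adjusted p = 0.0375), where its value over all libraries was -0.23 ± 0.13 (adjusted p = 0.289). C1qtnf5, C1qtnf6 and C1qtnf12 were not called, with log2 differences of 0.11 (95% interval -0.59 to 0.81), -0.07 (-0.34 to 0.20) and 0.35 (-0.22 to 0.92).

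Against LY-364947, CHIR-99021 had 1 member called higher and 3 called lower, where 14.1% of all genes were called (6.45% higher and 7.69% lower). C1qtnf7 was 2.29-fold lower (95% interval 1.77 to 2.96, log2 fold change -1.20 ± 0.17, adjusted p = 0.00118), C1qtnf2 was 1.88-fold lower (1.35 to 2.63, -0.91 ± 0.22, adjusted p = 0.0195) and C1qtnf1 was 1.4-fold lower (1.14 to 1.72, -0.48 ± 0.13, adjusted p = 0.0379). The number of members called fell from 4 to 2 without CHIR-99021 replicate 1, without CHIR-99021 replicate 2, without LY-364947 replicate 1 or without LY-364947 replicate 2. In these 4 fits the calls of C1qtnf1 and C1qtnf2 were lost, and that of C1qtnf1 was also lost without MEF replicate 1 (adjusted p = 0.0812) or MEF replicate 2 (0.0788).

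Between LY-364947 and carbidopa no member was called by edgeR, none had an unadjusted p under 0.05, and DESeq2 called 0 as well. Over all genes, 0.0132% were called in this contrast. The log2 differences ran from -0.24 for C1qtnf2 (95% interval -0.69 to 0.22) to 0.25 for C1qtnf1 (-0.04 to 0.55). These intervals do not show that the compounds act alike. Without carbidopa replicate 2, C1qtnf1 (0.432, adjusted p = 0.0219) and C1qtnf2 (-0.535, adjusted p = 0.0242) were called, and 3816 of all genes tested were called in place of 2. The carbidopa replicates were the least alike pair of libraries, with a chi-square per degree of freedom of 37.9 over genes, against 4.57 for the MEF pair.

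Other proteins with a C1q domain, and the CTRP relative Erfe, form a wider group. Of 22 such genes, 11 were tested, and with each compound 1 was called higher and 8 lower. Of all genes tested, 37.7% were called under carbidopa, 31% under LY-364947 and 38.8% under CHIR-99021, with 19.7%, 17.2% and 20.1% called lower. The median log2 fold change of the 11 was -1.19 under carbidopa, -1.68 under LY-364947 and -2.37 under CHIR-99021, against 0.04, 0.03 and 0.04 over all genes tested. The 11 genes not tested, among them the cerebellins and Adipoq, had 0 to 11 reads, and 3 of them had 0 in all libraries. Col8a2 and Erfe passed the filter through MEF, where they were high, so the count is no support for a change of the group.

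The largest changes among these relatives were those of Col8a2, and the short-chain collagens were lower under every compound. Col8a1, a chain of the collagen VIII network, stood at 939 ± 61.9 CPM in MEF, 72.7 ± 3.28 under carbidopa, 84.1 ± 1.2 under LY-364947 and 126 ± 3.52 under CHIR-99021. It was lower by log2 fold changes of -3.69 ± 0.11, -3.48 ± 0.11 and -2.90 ± 0.10, and higher under CHIR-99021 than under carbidopa (0.79 ± 0.10, adjusted p = 0.00059) or LY-364947 (0.58 ± 0.10, adjusted p = 0.00358). Col8a2, its partner chain, had log2 fold changes of -5.46 ± 0.35, -5.74 ± 0.37 and -5.78 ± 0.38 from 17.8 ± 2.71 CPM in MEF. It had only 8 and 9 reads under carbidopa, 2 and 10 under LY-364947 and 6 and 5 under CHIR-99021. At such counts these SEs can fall short of counting error alone. Col10a1, the collagen of hypertrophic cartilage, had -2.89 ± 0.37, -2.76 ± 0.37 and -2.37 ± 0.36 from 3.17 ± 0.0728 CPM. These values also rest on few reads, 7 to 11 in each treated library. Per kilobase, Col8a1 (120 ± 7.91) was the only relative near the MEF level of C1qtnf3.

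C1ql3, a synaptic organiser, was lower by -1.19 to -1.54, and Erfe, the erythroblast hormone of iron metabolism, by -1.77 to -1.95 on the log2 scale, all called. Erfe had few reads, with 14 and 19 in MEF and 4 to 10 in each treated library. Emilin2, an elastic fibre protein, was higher under carbidopa (1.36 ± 0.12, adjusted p = 1.47e-05) and LY-364947 (1.07 ± 0.12, 9.15e-05) but was not called under CHIR-99021 (0.32 ± 0.13, 0.0662). Emilin1 was higher under CHIR-99021 (0.96 ± 0.17, adjusted p = 0.00125) and was not called under carbidopa (0.40) or LY-364947 (0.42). Caprin2, an RNA-binding protein with a C1q domain, was not called with any compound.

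The chains of complement C1q, which macrophages make, were lower with every compound and lowest under CHIR-99021. C1qb had log2 fold changes of -0.74, -1.32 and -3.12 under carbidopa, LY-364947 and CHIR-99021, from 36.8 ± 1.1 CPM in MEF. The log2 fold changes were -1.43, -2.10 and -3.14 for C1qa and -0.97, -1.68 and -3.46 for C1qc. Summed macrophage markers, mostly Lyz2, stood in the same order of groups, at 986 to 1026 CPM in MEF, 290 to 302 under carbidopa, 218 to 221 under LY-364947 and 71.1 to 79.9 under CHIR-99021. Of those tested, Cd14 alone was not called under carbidopa (log2 fold change -0.36) or LY-364947 (-0.42). The part of the macrophage markers in the C1q values was not tested.

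**Figure D4:**
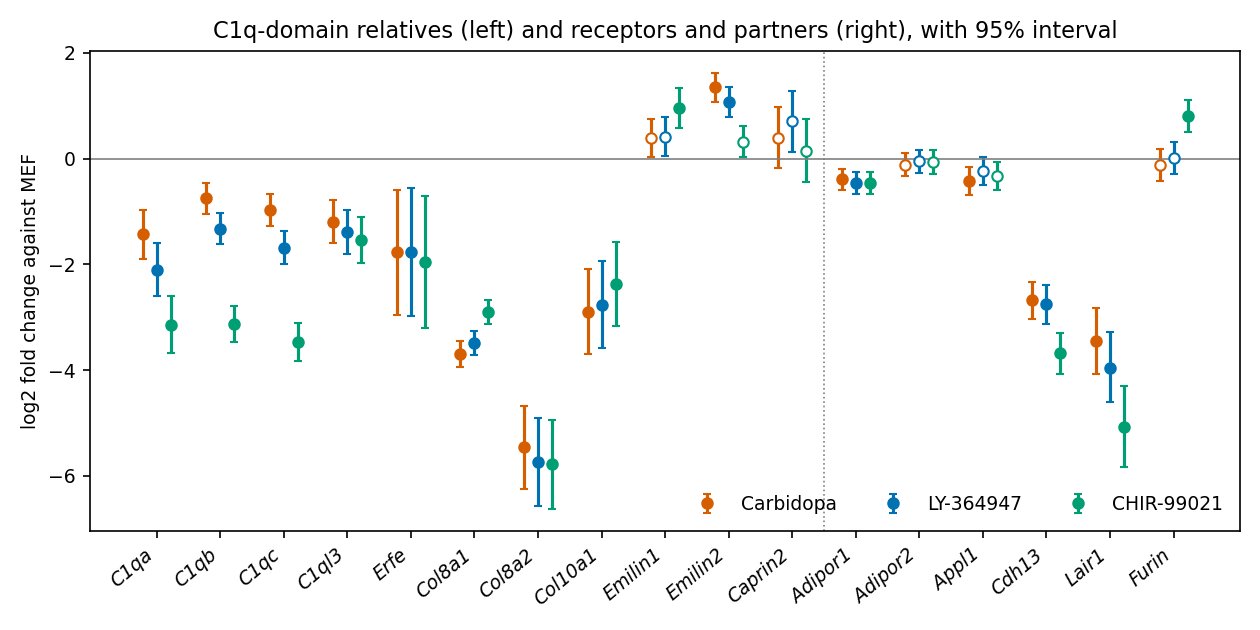
Log2 fold change against MEF with its 95% interval for 11 genes with a C1q domain or related to the family (left of the dotted line) and 6 receptors and partners (right), by compound. Filled points were called at an adjusted p under 0.05. Col8a2 lies lowest, at -5.46 to -5.78, and Adipor2 lies at 0 within its intervals.

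Of 9 genes for receptors and partners of the family and of adiponectin, 6 were tested. Under carbidopa 4 were called lower and 0 higher, under LY-364947 3 lower and 0 higher, and under CHIR-99021 3 lower and 1 higher. The shares called over all genes tested were 37.7%, 31% and 38.8% in these contrasts, and a count over 6 genes is no result about the group. Rxfp1 and Adgrb3, receptors proposed for some members, and Mfrp had 0 to 8 reads and were not tested. Cdh13, the T-cadherin that binds adiponectin, was at 122 ± 1.92 CPM in MEF, 19 ± 3.99 under carbidopa, 18.1 ± 0.447 under LY-364947 and 9.51 ± 1.97 under CHIR-99021. The log2 differences from MEF were -2.68 ± 0.16, -2.75 ± 0.16 and -3.68 ± 0.17, and it was lower under CHIR-99021 than under carbidopa (adjusted p = 0.0042) or LY-364947 (log2 difference -0.93 ± 0.17, adjusted p = 0.00658).

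The adiponectin receptor Adipor1 was slightly lower with all compounds, by log2 fold changes of -0.39 ± 0.09, -0.46 ± 0.09 and -0.46 ± 0.09, from 244 ± 2.99 CPM in MEF. The other receptor, Adipor2, at 88.5 ± 3.05 CPM in MEF, was not called, with values between -0.11 and -0.05. Appl1, the adaptor of these receptors, was lower under carbidopa (-0.42 ± 0.12, adjusted p = 0.0204) and not called under LY-364947 (-0.23) or CHIR-99021 (-0.33, adjusted p = 0.0511). Furin, the protease that cuts C1qtnf12, was higher under CHIR-99021 than in MEF (0.81 ± 0.13, adjusted p = 0.000943), under carbidopa (0.93 ± 0.13, 0.00148) or under LY-364947 (0.80 ± 0.13, 0.00358). Lair1, an inhibitory receptor of leukocytes that binds C1q and collagens, went from 11.9 ± 0.358 CPM in MEF to 1.08, 0.76 and 0.347 CPM. Lair1 stood in the same order of groups as the summed macrophage markers, whose part in it was not tested.

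For each member tested, the 2 genes with the closest profile over the 8 libraries were found by the root mean square (RMS) difference of log2 CPM, each gene centred on its own mean. The genes closest to C1qtnf3 were Aspn, a leucine-rich proteoglycan, at an RMS difference of 0.58, and Lgr5, a receptor for R-spondins, at 0.78, where the RMS spread of C1qtnf3 itself was 3.92. Aspn stood at 855 CPM in MEF, 0.398 under carbidopa, 0.628 under LY-364947 and 5.18 under CHIR-99021. Close genes were Tns2 and Carmil1 for C1qtnf1 (both 0.09, spread 0.56), Tm7sf2 for C1qtnf2 (0.12, spread 0.55), and Adamts2 (0.12) and Mfap5 (0.13) for C1qtnf7 (spread 0.76). Adamts2, the procollagen peptidase, was at 110 CPM in MEF, 52.4 under carbidopa, 56.3 under LY-364947 and 26 under CHIR-99021. C1qtnf5 was closest to Tspo (0.16) and Nuak2 (0.19), C1qtnf12 to Nab2 (0.09) and Erf (0.10), and C1qtnf6 to Rnf115 and Gpbp1 (both 0.05), in a profile with a spread of only 0.08.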

How the data were processed

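RNA-seq libraries of mouse embryonic fibroblasts were analysed from the deposited table of counts per gene. For the deposited counts, the authors used STAR 2.4.2a with mm10 and then featureCounts. The annotation release and the strand setting are not given in the sources used here, and the labels and the methods name different library kits. Groups and replicate numbers came from the sample titles. Nothing states that replicates were separate cultures, so p-values measure the spread between these samples.

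Counts were analysed in R 4.3.3 with edgeR 4.0.16 (TMM, filterByExpr, quasi-likelihood test, all 8 libraries in 1 fit, group as the only term). Adjustment was by the Benjamini-Hochberg method over 15154 genes. SE is the size of the log2 fold change divided by the square root of F. At counts of a few reads, this SE and the interval drawn from it can fall short of counting error alone. The biological coefficient of variation was 11%. CPM are TMM-normalised, and lengths are the union of exons in GENCODE M21 (GRCm38), which held 50354 of 50578 genes (99.6%). Profiles used log2 CPM with a prior count of 2. Reads have no molecular identifiers, so a limit drawn from reads covers counting error alone. No pair of replicates was alike within sampling noise.

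The members, relatives, receptors and markers were chosen with earlier results of these data known. The genes named are all members, the tested genes of the lists, the genes with the nearest starts, those sharing exons with a member that the text names, and the 2 closest profiles per member, of which 1 gene is not reported here. Promoters are from RefSeq (GRCm38.p6). Proteins were not analysed here. Alternatives were RLE size factors, DESeq2 1.42.0 (Wald test), no filter, at least 10 counts in every library, only the groups compared, a replicate block and leaving out each library. The fit was tested on simulated data in which few genes changed, all by far less than C1qtnf3 did here. That test therefore does not cover changes as large or as many as those called here.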

Additional observations from a re-analysis of the deposited data

How the results depend on the processing

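With RLE size factors, with the filter that asks for 10 counts in each library and with only the groups compared, every value of a member that could be fitted kept its direction and its side of the threshold. That filter left out C1qtnf3 in all contrasts, and the fit of LY-364947 and carbidopa alone left it out too. Without a filter, C1qtnf2 with CHIR-99021 against MEF was 0.001. DESeq2 changed 1 call, that of C1qtnf12 with LY-364947. The replicate numbers did not pair the libraries (correlations of deviations -0.161 to 0.128), and a replicate block changed 1 call, also C1qtnf12 with LY-364947 (-0.788, adjusted p = 0.0526), and no other.

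On leaving out each library in turn, a group of 1 library is assumed to vary like the others. The values that turned direction had not been called, and ranged as follows. C1qtnf6 went from -0.15 to 0.046 with carbidopa and from -0.028 to 0.089 with LY-364947 against MEF, and C1qtnf2 from -0.23 to 0.17 with CHIR-99021. In CHIR-99021 against carbidopa, C1qtnf5 went from -0.33 to 0.76 and C1qtnf6 from -0.16 to 0.034. In LY-364947 against carbidopa, C1qtnf2 went from -0.54 to 0.14, C1qtnf5 from -0.60 to 0.49, C1qtnf6 from -0.015 to 0.18, C1qtnf7 from -0.026 to 0.13 and C1qtnf12 from -0.35 to 0.042. The number of members called was 2 to 4 in CHIR-99021 against LY-364947 and 0 to 2 in LY-364947 against carbidopa. The causes were not tested.

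The number of all genes called moved more. Leaving out a library gave 3142 to 7996 with carbidopa (5717 with all), 2841 to 6519 with LY-364947 (4694), 3433 to 7800 with CHIR-99021 (5878), 715 to 4632 in CHIR-99021 against carbidopa (2227), 663 to 4228 in CHIR-99021 against LY-364947 (2143) and 2 to 3816 in LY-364947 against carbidopa (2). With only the groups compared, 1027 genes were called in CHIR-99021 against carbidopa and 3673 in CHIR-99021 against LY-364947. In LY-364947 against carbidopa, 329 were called without a filter, 16 by DESeq2 and 0 with only the groups compared.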
